A study of Mus musculus with 20 samples.

Results

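The collagen chains measured here were 42 genes, of 18193 genes with a usable probe set. A member is any gene whose symbol is Col, a number, the letter a and a number. Each gene was represented by 1 probe set that carries its symbol alone. That set had the highest mean over all 20 arrays on the log2 scale described below. For Col12a1 and Col8a1, another probe set had a higher mean of the linear signal. The 42 genes had 82 such probe sets in all, and 27 genes had more than 1. The samples were mouse glial progenitor cells from brain, labelled as cell lines, in 4 groups of 5 arrays. They were embryonic control cells, embryonic cells labelled as transduced and as genetically modified, postnatal control cells and postnatal cells labelled as transformed. The labels used here give no strain and no age beyond embryonic or postnatal, and they name neither what was introduced into the transduced cells nor what transformed the others. Lines are numbered within a group, with nothing to say that they came from separate cultures or animals. The p-values here reflect the spread between arrays of a group, estimated per gene over the 4 groups together. Some or all of that spread may be technical.

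Collagens are proteins of 3 chains wound into a triple helix, secreted and then assembled outside the cell. Fibrillar collagens build the striated fibres of skin, bone, tendon and cartilage, type IV collagen builds the sheet-like network of basement membranes, and the remaining classes link fibrils, form microfilaments or span the cell membrane. In the brain, collagen is found mainly in the basement membranes of blood vessels and of the brain surface, and the tissue between the cells holds few collagen fibrils.

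Each array gave 1 linear signal per probe set, scaled to a trimmed mean (2% trimmed at each end) of 2500.01 to 2500.02. The background level of an array was taken as the 95th percentile of 27 probe sets for bacterial transcripts and ran from 107 to 221, and a gene was counted as above background in a group where its signal passed that level on 4 or 5 of the 5 arrays. Correlations between arrays of a group were 0.947 or higher over all genes. Postnatal control arrays 4 and 5 stood apart from arrays 1 to 3 of their group. Mki67, a gene of dividing cells, had signals of 37266, 34816, 35822, 5929 and 4351 in that group, arrays 1 to 5 in turn, and of 3848 to 5403 in the postnatal transformed cells. Counts that use the postnatal control cells are therefore given with and without those 2 arrays, calls are said to be kept or lost without them, and the part of Mki67 or of cell division in them was not tested. Because the 4 groups share 1 spread per gene, those 2 arrays also enter the p-values of comparisons between the other groups. Changes below are differences of log2(signal + 16) with the standard error of the limma fit over all 20 arrays, p-values are adjusted by the Benjamini-Hochberg method over all 18193 genes, and a gene rose or fell where its adjusted p was under 0.05 and the fitted change at least 2-fold. In total RNA from a culture, fewer cells of a type and less RNA per cell cannot be told apart.

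Of the 42 collagen genes, 33 (78.6%) were above background on 4 or 5 arrays of at least 1 group, against 76.8% of all genes. Fewer, 15 (35.7%), were above background in every group, against 60.3% of all genes. A further 8 passed the level on 1 to 3 arrays at most in every group (17.6% of all genes), and Col10a1, a short chain collagen of growth plate cartilage, did so on no array (2.38% of members, 5.53% of all genes). By group, 29 collagen genes were above background in the embryonic control cells, 21 in the embryonic transduced cells, 22 in the postnatal control cells and 25 in the postnatal transformed cells. The background level ran from 139 to 214, 146 to 221, 120 to 170 and 107 to 200 in the same order. The share of all genes was not counted by group, so these counts cannot show a difference particular to collagen genes. The signals of different genes come from different probes and are not set against each other here.

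**Figure D1:**
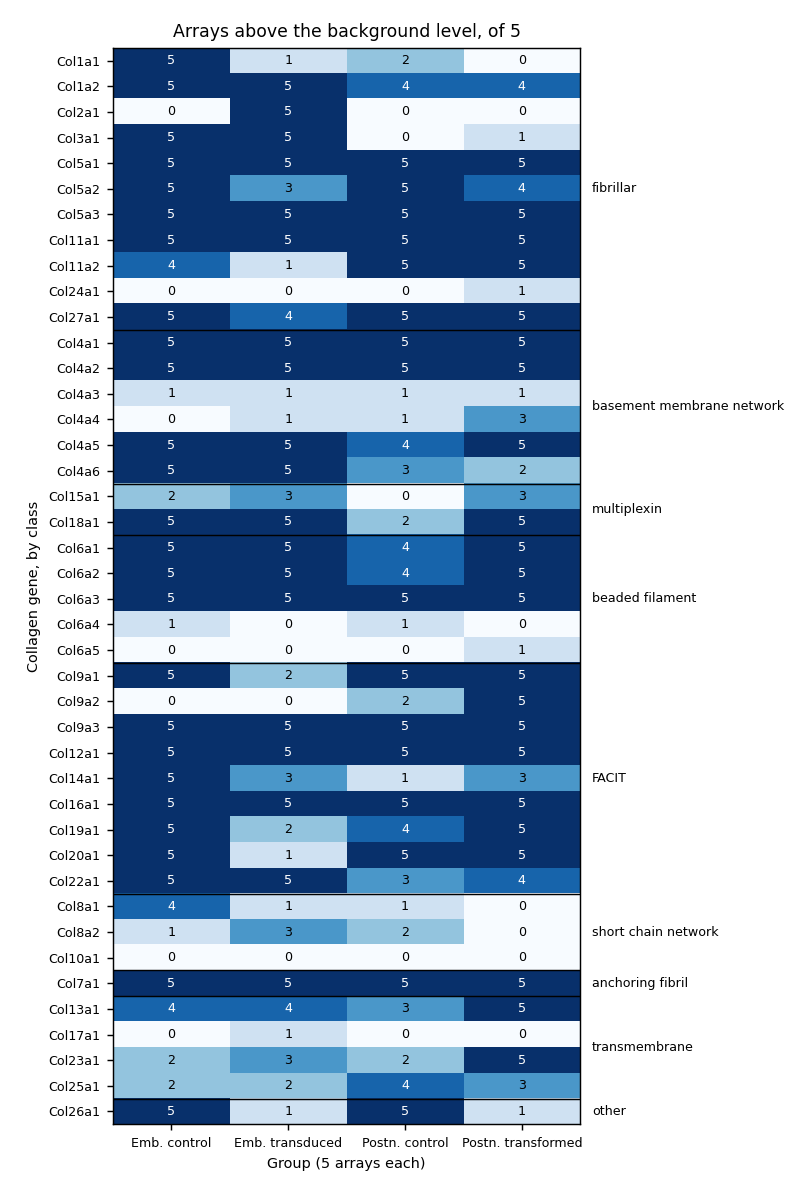
Number of arrays, of 5, on which each of the 42 collagen genes (rows, by class) passed the background level in each group (columns). 15 genes are dark in all 4 columns, and Col10a1 is at 0 in all of them.

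In the embryonic comparison, transduced minus control, 8 collagen genes were higher and 8 lower, with and without postnatal control arrays 4 and 5. Over all genes tested, 8.61% were higher and 5.74% were lower. The median fitted change of the 42 genes was 0.29 on the log2 scale (0.04 with genes below background set at their bound), beside 0.08 for all genes. In the postnatal comparison, transformed minus control, 11 were higher and 1 was lower, with 9.56% and 6.4% of all genes, and the median was 0.48 (0.38 at the bound) beside -0.00. Without postnatal control arrays 4 and 5, the postnatal counts were 10 higher and 1 lower, and 7 of those 10 were among the 11. By class, the basement membrane network had 3 higher and 0 lower of 6 genes in each response (medians 1.06 and 0.83), and 2 higher in the postnatal one without those 2 arrays. The fibrillar class had 1 higher and 3 lower of 11 in the embryonic response and 3 higher and 0 lower in the postnatal one, with and without the 2 arrays (medians -0.49 and 0.18, the latter 0 with genes below background at their bound). The FACIT class, fibril-associated collagens with interrupted triple helices, had 2 higher and 3 lower of 9 in the embryonic response and 0 of 9 in the postnatal one (medians 0.50, or 0 at the bound, and 0.44), where 3 were higher without the 2 arrays. Without them the transmembrane, multiplexin and beaded filament classes each had 1 postnatal call fewer.

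**Figure D2:**
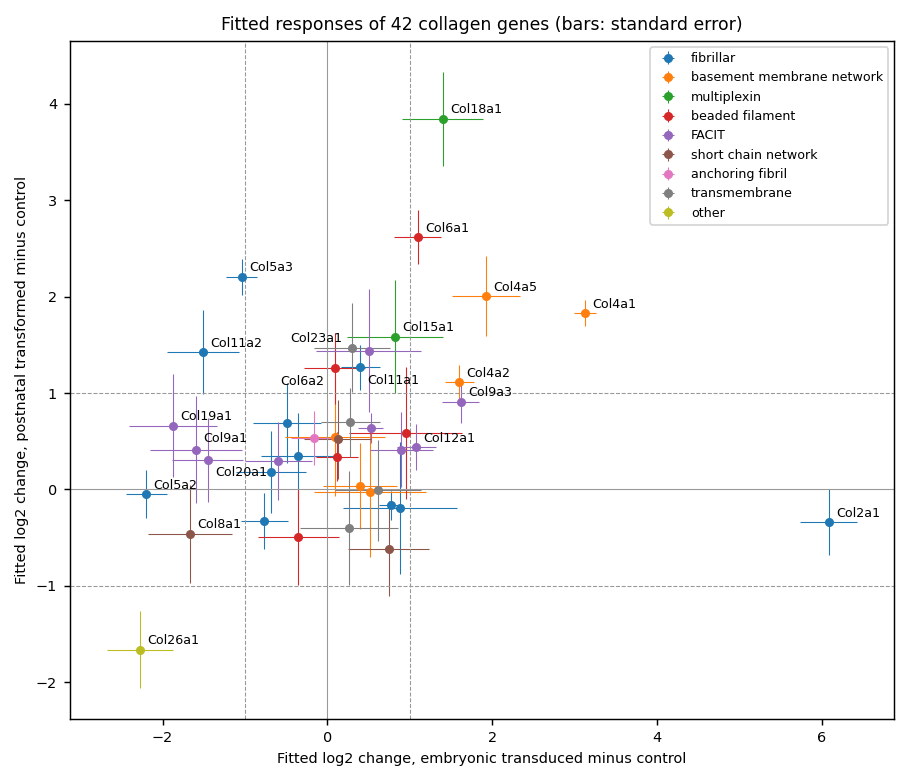
Fitted log2 change of each collagen gene in the postnatal comparison (vertical axis) against the embryonic comparison (horizontal axis), with standard errors as bars, colours for classes and dashed lines at a 2-fold change. Col4a1, Col4a2, Col4a5, Col6a1 and Col18a1 lie past both upper lines, Col26a1 lies past both lower lines, and Col5a3 and Col11a2 lie on opposite sides in the 2 comparisons.

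Type IV collagen has 6 chains, whose genes lie as adjacent pairs. The start regions of Col4a1 and Col4a2 on chromosome 8 and of Col4a5 and Col4a6 on chromosome X are shown because the first pair rose together in both comparisons and the second pair did not. The sequences are RefSeq promoter windows of mouse build GRCm38.p6, from 250 bases before to 50 after the annotated gene start, given 5′ to 3′ on the strand of the gene; the Col4a1 and Col4a6 windows lie on the minus strand and the Col4a2 and Col4a5 windows on the plus strand. Capitals mark matches, on either strand, to the motifs CCAAT and GGGCGG, which did not overlap each other; a match on the opposite strand appears as the reverse complement.
Col4a1 (chr8:11312777-11313076): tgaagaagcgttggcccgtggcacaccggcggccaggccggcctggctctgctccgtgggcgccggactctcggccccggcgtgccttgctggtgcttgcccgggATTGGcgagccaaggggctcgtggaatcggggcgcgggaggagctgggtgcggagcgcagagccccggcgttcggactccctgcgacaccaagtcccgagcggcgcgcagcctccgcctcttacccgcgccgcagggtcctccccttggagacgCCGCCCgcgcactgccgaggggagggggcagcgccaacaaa
Col4a2 (chr8:11312555-11312854): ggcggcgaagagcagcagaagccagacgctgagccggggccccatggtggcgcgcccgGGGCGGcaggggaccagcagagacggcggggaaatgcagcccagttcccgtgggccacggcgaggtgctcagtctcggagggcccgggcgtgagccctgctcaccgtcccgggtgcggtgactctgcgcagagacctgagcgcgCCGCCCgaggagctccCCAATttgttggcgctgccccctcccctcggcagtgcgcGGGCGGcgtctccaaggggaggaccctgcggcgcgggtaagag
Col4a5 (chrX:141475169-141475468): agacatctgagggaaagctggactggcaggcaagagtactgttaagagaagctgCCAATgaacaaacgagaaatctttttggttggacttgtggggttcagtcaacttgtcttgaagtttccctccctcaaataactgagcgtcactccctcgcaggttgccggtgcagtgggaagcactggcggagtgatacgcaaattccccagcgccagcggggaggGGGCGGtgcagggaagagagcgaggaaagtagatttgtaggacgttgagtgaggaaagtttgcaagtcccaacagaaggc
Col4a6 (chrX:141474027-141474326): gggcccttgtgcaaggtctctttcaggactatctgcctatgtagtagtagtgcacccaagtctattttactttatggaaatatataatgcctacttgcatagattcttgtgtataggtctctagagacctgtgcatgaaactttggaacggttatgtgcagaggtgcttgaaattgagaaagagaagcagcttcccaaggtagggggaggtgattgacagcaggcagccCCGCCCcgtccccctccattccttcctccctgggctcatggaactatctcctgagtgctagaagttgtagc
The Col4a1 and Col4a2 windows share 78 bases, read from opposite strands. The windows of Col4a5 and Col4a6 do not touch and lie 842 bases apart. CCAAT occurred once in the Col4a1, Col4a2 and Col4a5 windows and not in that of Col4a6, and GGGCGG occurred 1, 3, 1 and 1 times in the windows of Col4a1, Col4a2, Col4a5 and Col4a6. The GGGCGG match of Col4a1 and the last of the 3 of Col4a2 are the same bases, within the shared stretch. TATAAA, searched on both strands, was in none of the 4. Promoter windows were matched for 33 of the 42 genes, 36 windows in all; CCAAT was in 36.1% of these and in 37.4% of all 32851 windows, GGGCGG in 61.1% and 35.7%, and TATAAA in 13.9% and 13.6%. A match describes the letters in a window and no more.

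Col4a1 and Col4a2 encode the chains of the type IV network found in nearly every basement membrane, and both rose in both comparisons. Col4a1 read 902, 1064, 1049, 1079 and 1229 on embryonic control arrays 1 to 5 and 9868, 9675, 9858, 9473 and 8282 on the transduced arrays. It read 1472, 1332, 1003, 869 and 789 on the postnatal control arrays and 3555, 4014, 3959, 3597 and 3987 on the transformed arrays. Every modified array lay above every control array of its age, and the transduced arrays held the highest signals. The log2 change was 3.13 ± 0.13 (limma adjusted p = 3.43e-14) in the embryonic comparison and 1.83 ± 0.13 (2.12e-10) in the postnatal one, which was 1.60 without control arrays 4 and 5. A second Col4a1 probe set gave changes of 2.71 and 1.14.

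Col4a2 read 554, 730.4, 596, 443 and 795 in the embryonic control cells and 1508, 1812, 1874, 2248 and 2069 in the transduced cells. In the postnatal control cells it read 576, 668, 619, 373 and 477, and in the transformed cells 1157, 1335, 1175, 1167 and 1035. The groups did not overlap at either age. Col4a2 rose by 1.60 ± 0.18 on the log2 scale in the embryonic comparison (limma adjusted p = 1.58e-07) and by 1.11 ± 0.18 in the postnatal one (1.83e-05). The postnatal change fell just under 2-fold without control array 4 (0.99) and without control arrays 4 and 5 (0.90), with adjusted p of 6.00e-05 and 0.000235.

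Col4a5, a chain of the networks of kidney, smooth muscle and other basement membranes, rose at both ages as well. It read 2351, 2303, 2383, 2361 and 3027 in the embryonic control cells and 10948, 10237, 9609, 7963 and 8688 in the transduced cells, a change of 1.92 ± 0.42 (limma adjusted p = 0.000647). In the postnatal control cells it read 1869, 1265, 542, 472 and 124, against 2120.0, 2195, 2771, 2826 and 2541 in the transformed cells. The postnatal control arrays covered a wide range, with array 5 lowest, but all lay below the transformed arrays. The postnatal rise was 4.01-fold (limma adjusted p = 0.000388), and on the log2 scale it was 1.17 without arrays 4 and 5 (0.000198). A second Col4a5 probe set, above background on every array, gave smaller log2 changes of 1.65 in the embryonic and 1.04 in the postnatal comparison.

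Col4a6, the partner of Col4a5 in smooth muscle basement membranes, was above background on all 10 embryonic arrays but on 3 of 5 postnatal control and 2 of 5 transformed arrays. It read 325, 569.7, 181, 340.5 and 229 in embryonic control and 414, 409, 232, 576 and 486 in transduced cells, and 159, 289.9, 108, 35.2 and 250.0 in postnatal control and 98.8, 75.6, 302, 146 and 174 in transformed cells. The groups overlapped at both ages, and neither change passed the test (0.39 ± 0.45 and 0.04 ± 0.45). Col4a3 and Col4a4, adjacent genes whose chains join that of Col4a5 in the kidney filter, lay at background. Col4a3 read 22.2, 308, 17.6, 33.8 and 51.4 in embryonic control, 74.2, 41.9, 79.9, 49.6 and 239.6 in transduced, 33.4, 15.8, 16.6, 72.3 and 207 in postnatal control and 28.1, 25.8, 27.1, 25.8 and 262 in transformed cells, and passed the background level on 1 array of each. Col4a4 read 131, 27.6, 27.4, 23.7 and 120.3 in embryonic control, 13.5, 201, 15.4, 161 and 41.6 in transduced, 156, 115, 17.3, 66 and 119 in postnatal control and 76.2, 138, 66.7, 169 and 233 in transformed cells, and passed it on 0, 1, 1 and 3 arrays in the same order. Neither gene was above background on 4 or 5 arrays of any group. The 2 other Col4a4 probe sets, below background on all postnatal control arrays, were higher in the transformed cells, with means of 47.6 and 149 (limma adjusted p = 0.0201, 3 transformed arrays above background) and of 22.8 and 102 (0.00435, 2 arrays).

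**Figure D3:**
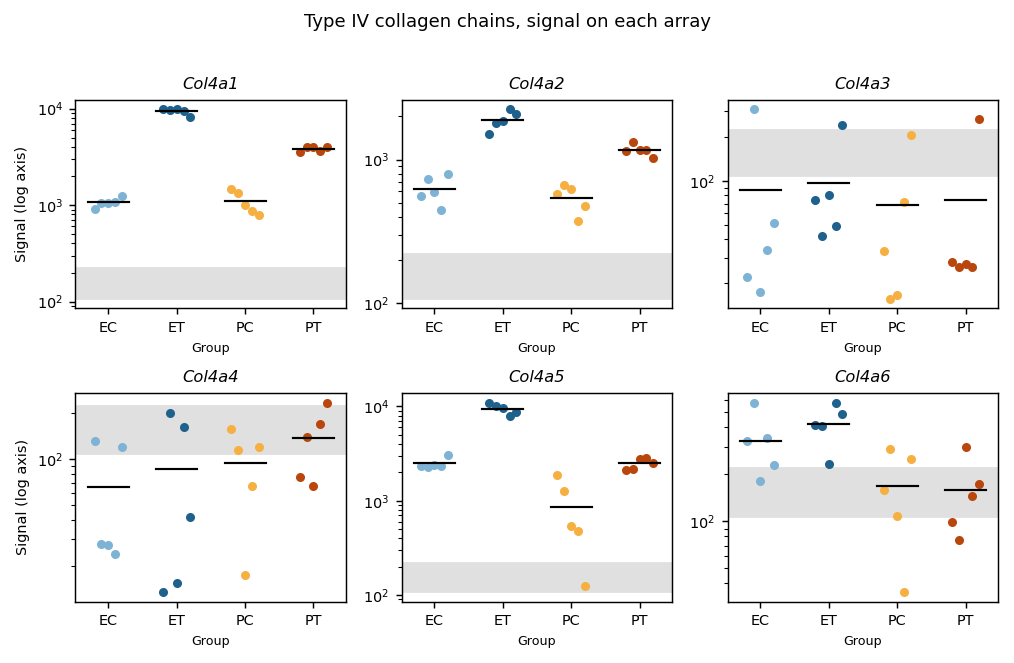
Signal of the 6 type IV collagen genes on each array (log axis), for embryonic control (EC), embryonic transduced (ET), postnatal control (PC) and postnatal transformed (PT) cells, with group means as lines and the range of the background level in grey. Col4a1, Col4a2 and Col4a5 were higher in the modified cells of both ages, and Col4a3 and Col4a4 lay mostly in or under the grey band.

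The multiplexins Col18a1 and Col15a1 encode proteoglycan-like collagens of basement membranes, Col18a1 being the source of the fragment endostatin. Col18a1 read 464, 1132, 1061, 551 and 731 in the embryonic control cells and 1745, 1714, 1685, 2003 and 3044 in the transduced cells. In the postnatal control cells it read 275, 144, 489, 11.3 and 105 and passed the background level on 2 of 5 arrays, while in the transformed cells it read 2144, 2063, 2182, 2349.7 and 2042. Each modified group lay wholly above its control group. The changes were 1.40 ± 0.49 (limma adjusted p = 0.0264) and 3.85 ± 0.49 (9.65e-07), the latter 2.92 without control arrays 4 and 5, where the signals of 11.3 and 105 lay under background. The embryonic call was lost without embryonic control array 1 or 4 or without transduced array 5, where the change was 1.23, 1.29 and 1.25 and the adjusted p between 0.0615 and 0.0713, and with an offset of 1 (0.0693). A second probe set gave 2.31 and 3.41. Col15a1 was at background in postnatal control cells (8.58 to 96.3, no array above the level) and read 64.8 to 406 in the transformed cells, with 3 of 5 arrays above it and overlapping groups. It was called at least 1.23-fold higher (limma adjusted p = 0.0328), and the call was lost without control arrays 4 and 5 (0.102) and when any of 6 single arrays was left out, namely control arrays 2 and 4 and transformed arrays 2 to 5 (fitted change 1.22 to 1.60).

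Among 14 measured laminin, nidogen and heparan sulfate proteoglycan genes of the basement membrane, 4 were higher and 0 lower in the embryonic response, and 5 were higher and 1 lower in the postnatal response. Over all genes, 8.61% were higher and 5.74% lower after transduction, and 9.56% and 6.4% after transformation. Call counts of the marker lists below stand beside the same shares. The median of the 14 genes was 0.65 in the embryonic and 0.52 in the postnatal comparison. Nid1, which bridges laminin and type IV collagen, went from a mean signal of 1098 ± 249 (SD, n = 5) to 6126 ± 467 in the embryonic cells and from 193 ± 80.5, with 3 of 5 arrays above background, to 598 ± 107 in the postnatal cells (2.49 ± 0.23 and 1.63 ± 0.23). A second Nid1 probe set changed by 3.33 in the embryonic cells. In the postnatal cells it was dim, with means of 52.3 and 55.5, and its change of 0.28 did not pass. Lamb1, a laminin beta chain, rose by 1.17 ± 0.28 in the embryonic comparison and went from 227 ± 129.5, with 3 of 5 arrays above background, to 4241 ± 579.6 in the postnatal one. Lama5, a laminin alpha chain, rose by 1.92 ± 0.15 in the embryonic comparison and changed by -0.09 ± 0.15 in the postnatal one, short of the test. Lama4, the laminin alpha chain of vessel walls, rose by 4.25 ± 0.38 in the postnatal comparison (3.39 without control arrays 4 and 5) and its embryonic change of 0.58 ± 0.38 did not pass.

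Markers of vessel cells were read beside the basement membrane genes. Of 9 endothelial markers, 3, 4, 0 and 1 were above background on 4 or 5 arrays in embryonic control, transduced, postnatal control and transformed cells, and Pecam1 and Tie1 were so on no array. In the embryonic response 2 were called higher, Kdr from 162 to 504 (2 and 5 arrays above background) and Flt1 from 87.9 to 291 (1 and 4 arrays), and Vwf was called lower. Cldn5 went from 178 to 327 and was not called. In the postnatal response Tek was called higher (0 and 2 arrays above background), and without control arrays 4 and 5 Kdr was as well. The summed signal was 1025 to 1380.2, 1310.5 to 2368, 539 to 1548 and 853 to 1376 in the order of groups above. Of 6 pericyte markers, 2, 2, 2 and 4 were above background, with a summed signal of 10270.1 to 21614, 8186 to 9248, 1288 to 2706 and 2396 to 2669.7. In the embryonic response Notch3 rose from 2164 to 5384 and Acta2, which held most of the sum in the control cells, fell from 12604 to 2858. In the postnatal response Abcc9 was called higher (0 and 4 arrays above background), a call lost without control arrays 4 and 5 (adjusted p = 0.0574). The part of such cells in the collagen changes was not tested.

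Fibrillar collagens include the abundant chains of connective tissue, types I and III, the cartilage chain Col2a1, and the minor chains of types V and XI that set fibril diameter. Col2a1 had the largest fitted change of any collagen gene in either response. It read 22.6, 25.4, 39, 51.2 and 21.7 in the embryonic control cells, below background on every array, and 2749, 3367, 3974, 3025 and 2799 in the transduced cells. It read 14 to 90.9 in the postnatal control and 14.5 to 54 in the transformed cells, again below background on every array. Col2a1 was thus above background in the transduced group alone, there on all 5 arrays. With the control arrays set at their background level, it was at least 18.9-fold higher after transduction (limma adjusted p = 3.44e-12).

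Of the 3 type V chains, Col5a2 and Col5a3 fell in the embryonic comparison and Col5a1 was not called. Col5a2 read 1202, 1444, 1264, 1214 and 1257 in control cells and 251, 190.4, 220.3, 373 and 330.0 in transduced cells, with 3 of the transduced arrays above background. The mean signal went from 1276 ± 97.4 (SD, n = 5) to 273 ± 76.4 with no overlap, and the fitted change was -2.20 ± 0.25 (limma adjusted p = 2.73e-07). In the postnatal cells it read 177 to 465 and 198 to 297, and the change of -0.05 ± 0.25 did not pass. A second probe set gave -2.63 in the embryonic comparison. Col5a1 read 1781 to 2249 in embryonic control and 2888 to 3593 in transduced cells, a change of 0.77 ± 0.15 that was under 2-fold, and a second bright probe set gave 0.16.

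Col5a3 moved in opposite directions at the 2 ages. It read 899, 1142, 955, 871 and 901 in embryonic control and 369, 501, 303, 558 and 601 in transduced cells, a fall of 1.04 ± 0.18 in absolute log2 units (limma adjusted p = 7.47e-05). In postnatal control cells it read 446, 583, 329.9, 459 and 479, and in transformed cells 1921, 2081, 2029.9, 2433 and 2293, a rise of 2.21 ± 0.18 (1.75e-09; 2.24 without control arrays 4 and 5). The groups did not overlap at either age, with the transduced cells below their controls and the transformed cells above theirs. The embryonic fall lay close to the 2-fold threshold, and it was under 2-fold without control array 2 (-0.98) or transduced array 1 (-0.97) or 3 (-0.90), with an offset of 64 (-0.97) and in the mean with its dim second probe set (-0.48).

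The 2 type XI chains, partners of type II collagen in cartilage and of type V in other tissues, rose in the postnatal comparison. Col11a2 read 393, 356, 315, 909 and 1091 in postnatal control and 1408, 1369, 1526, 1615 and 1436 in transformed cells. The transformed arrays lay close together and above all controls, while control arrays 4 and 5 lay between arrays 1 to 3 and the transformed arrays. The change was 1.43 ± 0.44 (limma adjusted p = 0.0111) and 2.01 without arrays 4 and 5. In the embryonic cells Col11a2 read 218, 266, 299, 245 and 86.2 in control cells and 25.4, 77.7, 35.1, 231 and 45.2 in transduced cells, above background on 4 and 1 arrays. The mean went from 223 to 82.8 (adjusted p = 0.00823) with overlapping groups. Col11a1 read 4998 to 5902 on postnatal control arrays 1 to 3, 16883 and 11982 on arrays 4 and 5, and 16590.5 to 22005 in the transformed cells. It rose by 1.27 ± 0.24 with overlapping groups, and by 1.82 without arrays 4 and 5, and its embryonic change of 0.40 ± 0.24 did not pass. The limma adjusted p of that embryonic change was 0.208 with postnatal control arrays 4 and 5 and 0.0021 without them. The change was under 2-fold either way.

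Col1a1, Col1a2 and Col3a1, the main chains of skin and tendon, were not called in either response. Col1a2 was above background in all 4 groups, with means of 641, 383, 299.8 and 233 in embryonic control, embryonic transduced, postnatal control and postnatal transformed cells. Col3a1 was above background on all embryonic arrays (317 to 689 and 368 to 469.8) and on 0 postnatal control and 1 transformed array. Col1a1 passed the level on all 5 embryonic control arrays (178 to 369) and on 1, 2 and 0 arrays of the transduced, postnatal control and transformed cells. Of the remaining fibrillar chains, Col27a1 was above background in every group with no call in either response, and Col24a1 lay at background in all 4 groups, with 1 of 20 arrays above the level.

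**Figure D4:**
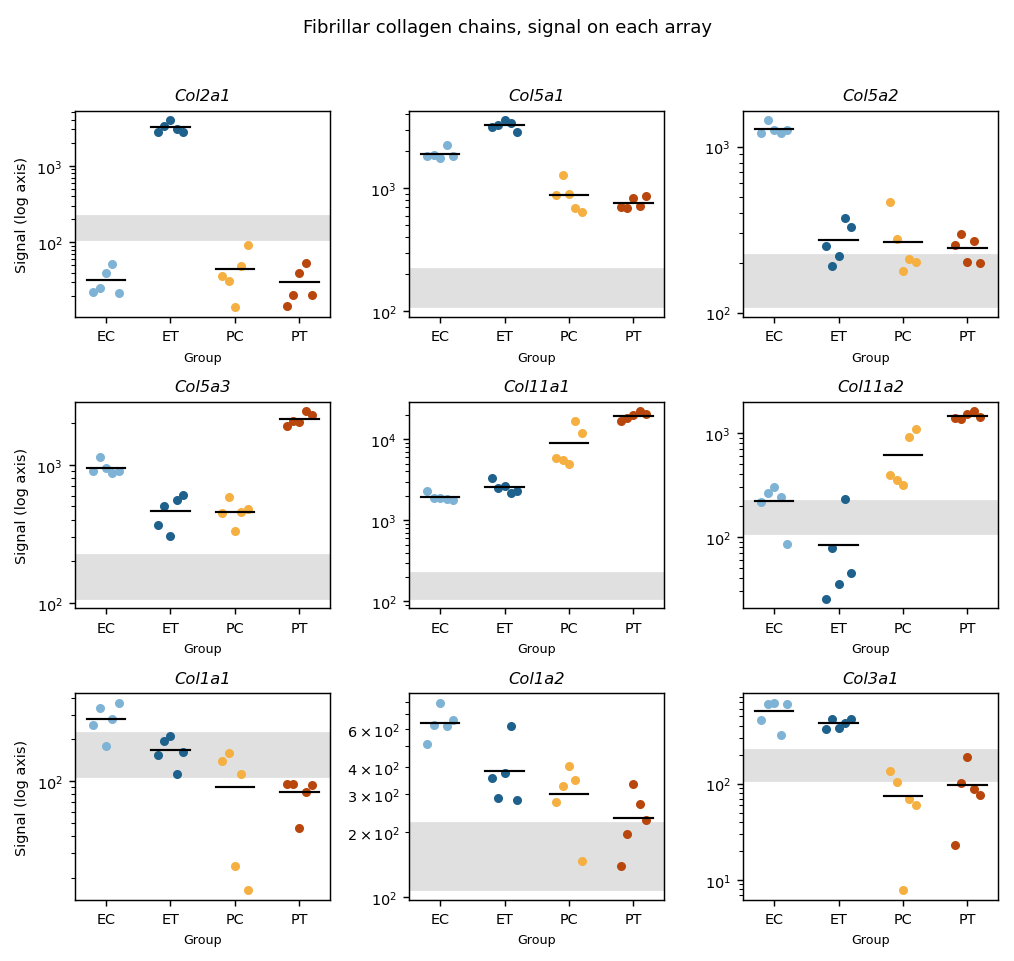
Signal of 9 fibrillar collagen genes on each array (log axis), for embryonic control (EC), embryonic transduced (ET), postnatal control (PC) and postnatal transformed (PT) cells, with group means as lines and the range of the background level in grey. Col2a1 was above background in the ET arrays alone, at 2749 to 3974, and Col5a3 was lower in ET than EC and higher in PT than PC.

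Fibroblast markers were read beside the fibrillar chains. Of 9 measured, 4, 3, 3 and 4 were above background in embryonic control, transduced, postnatal control and transformed cells. Their summed signal was 12564 to 16053, 20893 to 24245, 3825 to 13295 and 30038 to 32265 in the same order. A sum runs over different probes, and Fbln1 in the transduced cells and Prrx1 in the transformed cells held most of it. Of the list, 1 gene was called higher and 1 lower in the embryonic and 2 higher and 0 lower in the postnatal response. Fbln1, a matrix protein, went from 10293 to 21021 in the embryonic comparison and was above background on all 20 arrays, as was Thy1. Prrx1 and Twist1, transcription factors of mesenchyme, rose in the postnatal comparison (Prrx1 from 1945 to 24169, Twist1 from 42.7 with 1 of 5 arrays above background to 620.4), while Prrx1 fell in the embryonic one (from 1804 to 472). Lum was above background on 5, 3, 3 and 2 arrays and Mfap5 on 2, 3, 3 and 3 in the order of groups above, and Dcn, Pdgfrb and Twist2 were so on 1 to 3, 0 to 1 and 0 to 1 arrays of a group. The part of such cells in the fibrillar changes was not tested.

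Of the FACIT collagens, the type IX chains coat type II fibrils in cartilage. Col9a1 read 483, 695, 567, 536 and 593 in embryonic control cells and 78, 146, 212, 187 and 375 in transduced cells, with 2 of the transduced arrays above background. The groups did not overlap, and the change of -1.60 ± 0.56 passed (limma adjusted p = 0.026). It was lost without control array 2 (-1.53, adjusted p = 0.0528), transduced array 1 (-1.33, 0.0789) or transduced array 2 (-1.53, 0.0527), and in the mean of its 2 probe sets (-1.18, 0.122). In postnatal control cells Col9a1 read 3873, 2444, 4371, 35722 and 33104, and in transformed cells 11628, 11911, 11347, 11802 and 11087. Arrays 1 to 3 of the control lay below the transformed arrays and arrays 4 and 5 lay above them. The change was 0.41 ± 0.56 (limma adjusted p = 0.618) over all arrays and 1.73 (2.03e-05) without arrays 4 and 5, so the call depends on these 2 arrays.

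Col9a3 read 1828, 1256, 2015, 1702 and 1971 in embryonic control and 6209, 6221, 5684, 4208 and 4737 in transduced cells, a rise of 1.62 ± 0.22 (limma adjusted p = 3.62e-06) with no overlap. Its probe sets disagreed, with changes of 1.62 and 1.30 for the bright ones and -1.90 for a dim one, and the call was lost in the mean of all 3 (0.34). In the postnatal cells Col9a3 read 1102 to 3096 in control and 2792 to 4740.3 in transformed cells, and the change of 0.91 ± 0.22 was under 2-fold. Without control arrays 4 and 5 it was 1.26 and was called. Col9a2 was below background on all 10 embryonic arrays. It read 14, 116, 35.9, 381 and 453 in postnatal control cells, above background on arrays 4 and 5, and 245 to 644 in transformed cells, above it on all 5 (1.44 ± 0.64, limma adjusted p = 0.077; 2.59 and called without arrays 4 and 5). The chains Col9a1, Col9a2 and Col9a3 thus shared the pattern that the highest postnatal control signals were on arrays 4 and 5.

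Col12a1, which links fibrils to the surrounding matrix, read 453, 301, 614, 655 and 791 in embryonic control and 1187, 1215, 1197, 1171 and 992 in transduced cells with no overlap. It rose by 1.08 ± 0.24 (limma adjusted p = 0.000814), and by under 2-fold without control array 2 (0.88), with quantile normalization (0.95), with 75th percentile centring (0.99) or in the mean of its 4 probe sets (0.37). A second bright probe set gave changes of 2.18 in the embryonic and 2.25 in the postnatal comparison, where the representing set gave 0.44, so the 2 sets differ on the postnatal change. Col19a1 and Col20a1 were called lower in the embryonic comparison with overlapping groups (means 346 to 119 and 307 to 142), with 2 and 1 transduced arrays above background. The Col20a1 change was -0.13 in the mean of its 4 probe sets. Col16a1, a chain at the edge of fibrils, was above background on all 20 arrays and its changes of 0.52 ± 0.15 and 0.63 ± 0.15 were under 2-fold, hence not called. Col14a1 and Col22a1 were not called in either response.

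The type VI chains form beaded microfilaments around cells. Col6a1 read 236, 173, 143, 141 and 279 in postnatal control cells, above background on 4 of 5 arrays, and 982, 1211, 1331, 1243 and 1461 in transformed cells. All transformed arrays lay above all controls. Col6a1 rose by 2.62 ± 0.28 (limma adjusted p = 8.66e-08) in the postnatal comparison, and by 2.67 without control arrays 4 and 5. In the embryonic cells it read 173, 317, 481, 206 and 221 in control and 344, 529, 643, 848 and 637 in transduced cells, with overlap. This rise of 1.09 ± 0.28 was under 2-fold without control array 1 (0.95) or transduced array 4 (0.96), with an offset of 64 (0.97), with quantile normalization (0.92) and, by a narrow margin, with 75th percentile centring. Col6a2, its neighbour on chromosome 10 and its partner in the trimer, read 624, 499, 384, 416 and 166 in postnatal control and 804, 1178, 1125, 891 and 776 in transformed cells, without overlap. It rose by 1.26 ± 0.37 (limma adjusted p = 0.0079), and by 0.91 (0.055, no call) without arrays 4 and 5 and 0.97 without array 5 alone. Its second probe set, below background on all 5 control arrays, had mean signals of 50.4 and 866. In the embryonic cells Col6a2 read 614, 613, 1066, 400.4 and 351 and 726, 767, 676, 220.0 and 926, and the change of 0.09 ± 0.37 did not pass. Col6a3 was above background on every array with no call, and Col6a4 and Col6a5 were at background.

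**Figure D5:**
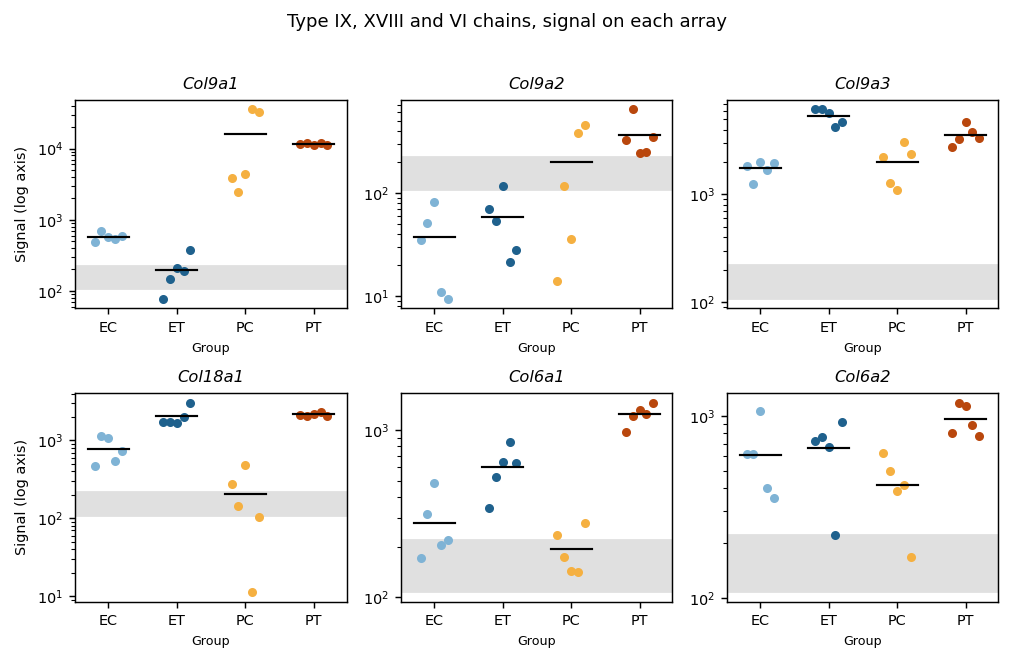
Signal of 3 type IX, 1 type XVIII and 2 type VI collagen genes on each array (log axis), for embryonic control (EC), embryonic transduced (ET), postnatal control (PC) and postnatal transformed (PT) cells, with group means as lines and the range of the background level in grey. For Col9a1, 2 PC arrays lie at 35722 and 33104 and the other 3 between 2444 and 4371, and for Col18a1 and Col6a1 all PT arrays lie above all PC arrays.

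The remaining classes held few changes. Col26a1, an atypical collagen, was the only gene lower in both responses. It read 452, 497, 485, 528 and 583 in embryonic control and 48.7, 70.8, 267, 83.6 and 76.8 in transduced cells, with 1 transduced array above background. The mean went from 509 ± 49.6 (SD, n = 5) to 109 ± 89.2 with no overlap (fitted change -2.28 ± 0.40, limma adjusted p = 6.67e-05). In the postnatal cells it went from 275 ± 152 to 73.5 ± 39.3, where 1 transformed array was above background and the groups overlapped (0.00151; 0.00528 and called without control arrays 4 and 5). Of the short chain network collagens, Col8a1, a chain of vessel walls and of Descemet's membrane in the eye, was called lower in the embryonic comparison (mean 323 to 105, 4 and 1 arrays above background, overlapping groups). Another Col8a1 probe set, below background on all 5 transduced arrays, had mean signals of 602 and 43.1. Col8a2 and Col10a1 were not called. Col7a1, the anchoring fibril of skin, was above background on all 20 arrays with changes of -0.16 ± 0.28 and 0.53 ± 0.28, neither past the test. Among the transmembrane collagens, Col23a1 was called higher in the postnatal comparison (mean 131 with 2 of 5 arrays above background to 304, overlapping groups), a call lost without control array 4 (0.95) and without arrays 4 and 5 (0.80). Col13a1, Col17a1 and Col25a1 were not called.

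Prolines and lysines of collagen chains are hydroxylated before the chains fold. The counts of this and the following lists stand beside 8.61% higher and 5.74% lower of all genes in the embryonic response and 9.56% and 6.4% in the postnatal one, and 1 call among 9 genes is a share near these. Of 15 enzymes and partners of this step, 5 were higher and 0 lower in the embryonic response, and 2 higher and 1 lower in the postnatal one (medians 0.43 and 0.54), the latter 3 higher without postnatal control arrays 4 and 5, with P4ha1 added. P4ha2, a prolyl 4-hydroxylase subunit, had a mean signal of 94 ± 65.9 (SD, n = 5) in embryonic control cells, with 1 of 5 arrays above background, and 8871 ± 1405 in transduced cells, the same group in which Col2a1 was above background. It had 256 ± 105 and 303 ± 66.6 in the postnatal groups, not called. Plod2, a lysyl hydroxylase, rose by 2.45 ± 0.17 in the embryonic comparison (limma adjusted p = 1.44e-10), and its postnatal change of -0.81 ± 0.17 was under 2-fold (-0.39 without control arrays 4 and 5). P3h4, a partner of lysyl hydroxylation, rose by 1.46 ± 0.09 in the embryonic comparison and its postnatal change of 0.84 ± 0.09 was under 2-fold. P3h2, a prolyl 3-hydroxylase, rose by 3.24 ± 0.19 in the postnatal comparison (8.8e-12), and its embryonic change of -0.73 ± 0.19 was under 2-fold.

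Of 7 measured genes of folding and export, 1 was higher and 1 lower in each response, and they were the same genes each time (medians -0.21 and -0.09). Serpinh1, which encodes the collagen chaperone of the endoplasmic reticulum, read 28109, 26893, 26109.8, 27502 and 28536 in embryonic control and 6592, 6485, 7221, 6607 and 5553 in transduced cells, and fell by 2.08 ± 0.34 (limma adjusted p = 2.95e-05). In the postnatal cells it read 5698, 4079.7, 2282, 2504 and 2297 in control and 75.8, 201, 145, 162 and 20.3 in transformed cells, with 2 transformed arrays above background. Both modified groups lay wholly below their controls, and the second Serpinh1 probe set gave -2.50 and -3.48. Fkbp14, a prolyl isomerase of the same compartment, rose by 1.31 ± 0.16 and 2.87 ± 0.16. Mia3, which loads large cargo for export, and Sec13, a coat protein of export vesicles, were not called in either response. The collagen genes that rose most, Col2a1 and Col4a1 in the embryonic and Col18a1 in the postnatal comparison, rose in groups in which Serpinh1 fell.

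Propeptide cleavage, which trims fibrillar chains after secretion, had 0 higher and 2 lower of 6 genes in the embryonic and 1 higher and 1 lower in the postnatal response (medians -0.29 and -0.25, or 0 and -0.14 at the bound). Pcolce, which enhances removal of the C-terminal propeptide, went from 168 ± 125 in postnatal control cells, with 3 of 5 arrays above background, to 13514 ± 726 in transformed cells. A second Pcolce probe set changed by 3.07. Bmp1, the protease that Pcolce enhances, fell by 1.74 ± 0.15 in the same comparison, so enhancer and protease moved in opposite directions. Adamts3, a protease of the N-terminal propeptide, fell by 1.33 ± 0.32 in the embryonic comparison, and Pcolce2 was not called. The other lower embryonic call of this list, Tll1, lay under background on every array of both embryonic groups (means 103 and 11.8). Of 4 crosslinking enzymes, 1 was higher in the embryonic and 2 in the postnatal response (1 without control arrays 4 and 5), and 0 were lower (medians -0.12 and 0.64). Loxl3 rose by 2.42 ± 0.17 in the postnatal comparison, Loxl1 was higher in both (means 208 to 584 and 94.8 to 184, the latter with overlap), and Lox and Loxl4 were not called. Of 9 collagen receptors, 1 was higher in the embryonic and 2 in the postnatal response (3 without the 2 arrays, with Itga10 added), and 0 were lower (medians 0.10 and 0.19). Mrc2, which takes up collagen fragments, rose by 2.11 ± 0.34 in the embryonic comparison. Ddr2, a receptor kinase for fibrillar collagens, rose by 2.55 ± 0.13 in the postnatal one, and Itga1, an integrin chain that binds type IV collagen, went from 124 ± 63.6, with 2 of 5 arrays above background, to 969.9 ± 64.9. Of the postnatal calls named among basement membrane partners and these pathway genes, that of Loxl1 was lost without control arrays 4 and 5 and the others, Nid1, Lamb1, Lama4, P3h2, Serpinh1, Fkbp14, Pcolce, Bmp1, Loxl3, Ddr2 and Itga1, were kept.

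Whether the responses differed between the 2 ages was tested as the postnatal response minus the embryonic response, which also holds the difference between transduction and transformation. Of the collagen genes, 8 had a higher difference and 2 a lower one, with 9.36% and 9.75% over all genes, and without postnatal control arrays 4 and 5 the counts were 10 and 3. All 10 genes kept their call without these arrays, and Col11a1, Col9a2 and Col5a1 were added. The lower differences were Col2a1, whose signal was below background in 3 of the 4 groups, and Col4a1 (-1.30 ± 0.19, limma adjusted p = 7.39e-06; -1.54 without the 2 arrays), which rose at both ages and more after transduction. The higher differences included Col5a3 (3.25 ± 0.26, 1.49e-09; 3.28 without the 2 arrays), which moved in opposite directions, and Col18a1 (2.45 ± 0.69; 1.52 without the 2 arrays) and Col6a1 (1.52 ± 0.40; 1.58), which rose more after transformation. Col5a2, Col11a2, Col19a1, Col20a1 and Col9a1 fell in the embryonic comparison, and of these Col11a2 alone was also called, higher, in the postnatal one. The Col9a1 difference (2.01 ± 0.79) was lost without any 1 of 17 arrays, all but transduced array 5 and postnatal control arrays 4 and 5 (1.55 to 2.07, adjusted p 0.0569 to 0.0960), and also with an offset of 64, with no intensity trend and in the mean of its probe sets. It was 3.33 without postnatal control arrays 4 and 5. The Col20a1 difference was lost without transduced array 4 (1.55) or transformed array 3 (1.64), and in the mean of its probe sets (0.81). For 4 genes called higher in the embryonic comparison, the difference was not called, with -0.49 ± 0.25 for Col4a2, 0.08 ± 0.59 for Col4a5, -0.71 ± 0.32 for Col9a3 and -0.64 ± 0.34 for Col12a1.

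Between the control cells of the 2 ages, 3 collagen genes were higher and 10 lower in the postnatal cells, with 4.86% and 5.72% over all genes. Without postnatal control arrays 4 and 5, the counts were 2 and 8, and the calls lost were those of Col5a1, Col1a2 and Col11a2. Of the lower genes, 6 were fibrillar. Col3a1 was at least 3.63-fold lower (limma adjusted p = 3.74e-05), Col5a2 lower by 2.27 ± 0.25 in absolute log2 units, and Col5a3 by 1.04 ± 0.18, which was under 2-fold without embryonic control array 2 (-0.98) or postnatal control array 3 (-0.93), with an offset of 64 (-0.97) and in the mean of its probe sets (-0.44). A second, dim Col3a1 probe set, above background on 2 embryonic and 1 postnatal control arrays, gave -0.43. Col5a1 (-1.14) and Col1a2 (-1.11) were lower by under 2-fold without the 2 arrays (-0.91 and -0.91), and Col1a2 also without array 5 alone (-0.89) and with an offset of 64 (-0.99). Col1a1, Col14a1 and Col8a1 were above background on 2, 1 and 1 postnatal control arrays, against 5, 5 and 4 in the embryonic controls, and Col14a1 was not called in the mean of its probe sets (-0.99). Col4a5 was 4.01-fold lower (a log2 change of -1.17 without the 2 arrays) and Col18a1 was above background on 2 arrays against 5. The second probe sets of Col4a5 (-0.83) and Col18a1 (-0.62) were lower by under 2-fold. The higher genes were Col9a1 (3.89 ± 0.56; 2.57 without the 2 arrays), Col11a1 (2.04 ± 0.24; 1.49) and Col11a2 (1.31 ± 0.44). The Col11a2 call was lost without the 2 arrays (0.73), and without embryonic control array 5 (1.03), postnatal control array 4 (1.12) or 5 (1.06).

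Between the modified cells, 9 collagen genes were higher and 8 lower in the postnatal transformed than in the embryonic transduced cells, with 11.7% and 13.7% over all genes. The age and the kind of modification cannot be told apart in this comparison. Col2a1 was at least 21.4-fold lower, and Col5a1 (-2.08 ± 0.15), Col4a5 (-1.92 ± 0.42) and Col4a1 (-1.30 ± 0.13) were lower as well. The second bright Col5a1 probe set gave -0.82, which was under 2-fold, and a dimmer one gave -1.65. Col12a1, Col22a1, Col3a1 and Col4a6 were the other lower genes, and Col22a1 (-1.22) was not called without transformed array 2 (-0.84). Col9a1 went from 199.6, with 2 of 5 arrays above background, to 11555, and Col11a2 from 82.8, with 1 of 5, to 1471. Col11a1 was higher by 2.91 ± 0.24 and Col5a3 by 2.21 ± 0.18. Col9a2 was at least 1.83-fold higher. The remaining higher genes were Col19a1, Col20a1, Col27a1 and Col6a1, of which Col27a1 (1.26) was not called without transduced array 2 (0.96) and Col6a1 (1.08) not without transduced array 1 (0.90). In the mean of all probe sets, the calls of Col12a1 (-0.64), Col20a1 (0.95) and Col27a1 (0.77) were lost as well. The cartilage-type chains were thus split, with Col2a1 above background in the transduced cells and the type IX chains Col9a1 and Col9a2 and the type XI chains higher in the transformed cells. The third type IX chain, Col9a3, was lower in the transformed cells by under 2-fold (-0.59). Its second bright probe set gave -0.80 and its dim one 2.12.

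Markers of the labelled cells and of others were read beside these results. All 6 measured glial progenitor markers were above background in every group, though 2 of them fell in the embryonic comparison, Pdgfra from 7629 to 596 and Cspg4 from 4278 to 1261. Their summed signal was 239101 to 267702 in embryonic control, 148575 to 159995 in transduced, 269052 to 323062 in postnatal control and 216660.0 to 227583 in transformed cells. Nes was called higher in the postnatal comparison, a call lost without control arrays 4 and 5 (0.59). Of 6 microglia markers, Csf1r and Cd68 were above background on 4 or 5 arrays of every group, and Aif1 and Itgam were so on no array. Cd68, a lysosomal protein, rose from 358 to 905 in the embryonic and from 262 to 614 in the postnatal comparison, and Itgam was called higher in the embryonic one below background. The list had a summed signal of 1145 to 1556, 1878 to 3057, 1024 to 1380.4 and 1364 to 1666. Of 4 Schwann cell and neural crest markers, 2, 1, 3 and 4 were above background, and Sox10 fell from 2601 to 189 in the embryonic comparison, with 2 of 5 transduced arrays above background. Egr2, of the same list, went from 1743 to 16889 in the embryonic and from 5793 to 751 in the postnatal comparison, where Foxd3 was called higher (0 and 4 arrays above background). The postnatal calls of Prrx1, Twist1, Tek, Cd68, Egr2 and Foxd3 were kept without control arrays 4 and 5. The part of these in the collagen changes was not tested. As a sign of RNA quality, the log2 ratio of the 3′ to the 5′ probe set of Actb was 0.30 to 0.35 in embryonic control, 0.39 to 0.45 in transduced, 0.20 to 0.29 in postnatal control and 0.23 to 0.32 in transformed cells. That of Gapdh was -0.43 to -0.32, -0.35 to -0.26, -0.51 to -0.41 and -0.59 to -0.48 in the same order. The Actb ratio of the embryonic groups did not overlap, with the transduced cells higher, and its part in the results was not tested.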

How the data were processed

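RNA of 20 mouse cell samples was read on single-colour arrays with 45101 probe sets. The deposited values are linear intensities, 1 per probe set and array; which software, background correction and scaling the authors used is not given in the sources used here. With 5 arrays per group, their number limits the precision. Probe sets were named from the platform annotation, and 64 control probe sets and those with several symbols or none were left out. The 34945 probe sets with 1 symbol gave 18193 genes. Values were analysed as log2(signal + 16) with limma 3.58.1 in R 4.3.3 (lmFit, eBayes with an intensity trend), 1 fit of 4 groups, Benjamini-Hochberg adjustment over all genes, calls at adjusted p under 0.05 and at least 2-fold. Scaling all arrays to 1 mean takes their total signal as equal, and the offset understates the fold of a dim gene. A gene below background on all 5 arrays of 1 group is given as at least N-fold, from each array's background level. Values by array are given for the 6 type IV chains and for collagen genes called in the embryonic or postnatal response with groups that do not overlap; pathway genes are named by smallest p, at most 4 of a list. The members and lists were chosen with earlier results of these data known. No pair of arrays was identical. The fit was tested on simulated data, where changes of genes with a large spread between arrays were recovered less often. Col6a6 and Col28a1 and 10 genes of the other lists had no probe set with a single symbol. Alternatives were other offsets, scalings, probe set rules, filters and thresholds, a replicate block, and leaving out arrays.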

Additional observations from a re-analysis of the deposited data

Results flagged for a closer look

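Dixon's gap test was applied on the log2(signal + 16) scale to 49 groups of 5 arrays, over 17 collagen genes. Groups with fewer than 4 arrays above background were left out. The rule was a gap over range above 0.71, which chance meets in about 1 group of 20. In 6 of the 49 groups, 1 array lay far from the other 4. They were Col11a2 on embryonic control array 5 (86.2), Col12a1 on embryonic transduced array 5 (992), Col4a1 on embryonic transduced array 5 (8282), Col4a5 on embryonic control array 5 (3027), Col5a2 on embryonic control array 2 (1444) and Col6a2 on embryonic transduced array 4 (220.0).

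The test of the postnatal minus the embryonic response passed for 10 collagen genes. On the log2 scale the difference was 2.93 for Col11a2, 2.45 for Col18a1, 2.53 for Col19a1, 1.76 for Col20a1, 2.15 for Col5a2, 3.25 for Col5a3, 1.52 for Col6a1 and 2.01 for Col9a1. It was -6.42 for Col2a1, a fitted value with 3 groups below background, and -1.30 for Col4a1. The kind of modification differs between the ages, so age and modification cannot be told apart.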

How the results depend on the processing

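Of 68 calls of single collagen genes over the 5 comparisons, 45 were kept under all 30 alternatives, 23 were lost under at least 1, and 0 reversed direction. The counts of collagen genes called stayed within 1.5 times the main value except for genes lower in the embryonic response, which were 5 rather than 8 when the mean of all probe sets stood for a gene, and those 5 were among the 8. That alternative ended 12 calls, among them the embryonic rise of Col9a3 and fall of Col5a3. Leaving out 1 array ended 17 calls, and the counts then ran from 6 to 8 for genes higher and 6 to 8 lower in the embryonic response and from 10 to 11 higher and 1 lower in the postnatal response. Leaving out postnatal control arrays 4 and 5 ended 7 calls. Same-numbered arrays showed no shared variation, as their deviations from the group means correlated between -0.05 and 0.03. These values cannot tell whether the samples were paired by origin. With the replicate block, the counts were 8 higher and 8 lower in the embryonic and 11 higher and 1 lower in the postnatal response, as without it. Quantile normalization changed the embryonic counts from 8 higher and 8 lower to 6 and 9, and the share of higher among all calls there from 60.0% to 51.2%. It moved the median of all genes in the comparison of modified cells from -0.14 to 0.00, and the collagen counts there were 9 higher and 8 lower under both. Genes near background, among them Col4a3, Col4a4 and Col10a1, have signals that limit what can be said of them.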

Other observations

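Adjacent collagen genes did not always share a change. In the embryonic comparison Col9a1 and Col19a1, neighbours on chromosome 1, changed by -1.60 and -1.87, while Col3a1 and Col5a2, also neighbours on chromosome 1, changed by -0.35 and -2.20. In the postnatal comparison the fitted changes were 0.41 and 0.66 for the first pair and 0.34 and -0.05 for the second, none of them called.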
